A study of Mus musculus with 6 samples.

Results

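Cardiac fibroblasts are the stromal cells that make and turn over its collagen-rich matrix. They were not the target of this study, which sorted CD45+ cells, that is, cells carrying the leukocyte surface protein encoded by Ptprc, from mouse hearts, but a small number came through the sort in every library. They were chosen by their own reads: at least 8 UMIs summed over the matrix genes Dcn, Col1a1, Col1a2 and Col3a1, with low or no counts of macrophage (C1qa, C1qb, C1qc), endothelial (Pecam1, Cdh5, Kdr), mural (Rgs5, Kcnj8), mesothelial (Upk3b, Msln) and B cell (Cd79a, Cd79b) genes. A UMI, or unique molecular identifier, counts 1 captured transcript. This rule found 471 fibroblasts among 32761 kept cells, where kept cells are those with 200 or more genes and with no more than 10% mitochondrial UMIs. Where levels of these 16 rule genes are given below, they are therefore a description, with no test.

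The study had 6 libraries of CD45+ cardiac cells in 3 groups of 2, all collected at 28 days. Wild-type hearts (genotype label WT, strain C57Bl6J) were sham treated or given 12 Gy in 1 fraction with an irradiator for small animals, and hearts labelled STING KO (titled C57Bl6J with the addition Tmem) received the same 12 Gy. STING, encoded by Tmem173, is the adaptor that passes on the detection of DNA in the cytosol. The design asks what heart irradiation does to these cells and whether that depends on STING. There was no sham library labelled STING knockout, so a difference between genotypes that does not depend on radiation cannot be told apart from one that does. The labels do not tell how many mice or hearts stand behind a library, or whether replicate libraries are separate mice, so the p-values below measure the spread between libraries only, which may be technical.

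As background, fibroblasts secrete fibrillar collagens and small proteoglycans such as decorin, and after injury some of them take on an activated, contractile form that makes scar. Irradiated cells stabilise the transcription factor p53, which raises genes for cell cycle arrest and cell death. Damaged DNA that reaches the cytosol can act through cGAS and STING to raise type I interferon, and interferons raise antiviral genes and the antigen-presenting machinery of MHC class I in most cell types, fibroblasts included.

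There were 119 and 109 fibroblasts in sham, 34 and 95 in irradiated wild type, and 77 and 37 in irradiated STING KO (library 1 before library 2, the order used throughout). Their summed UMIs ranged from 294965 to 796351 per library, out of 31650962 to 59675213 UMIs in all barcodes. The median fibroblast held between 6137 and 8225 UMIs and between 2294 and 2995 genes, depending on the library. No barcode of a fibroblast was shared between libraries, while pairs of libraries shared 4 to 30 barcodes of kept cells. The counts of the 2 libraries of a group differed by more than sampling noise in each group (chi-square per degree of freedom of 2.07 to 2.96), so no library appeared to be deposited in duplicate. Levels are given below in CPM, the usual unit of counts scaled to depth: the UMIs of a gene, summed over the fibroblasts of a library, relative to the library's UMIs in tested genes and its TMM factor from edgeR, which ranged from 0.953 to 1.07.

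The label was first checked against genes that the rule did not use. After every cell was thinned to 2000 UMIs, which 444 of the 471 fibroblasts reached, Gsn (gelsolin) was detected in 98.9% of fibroblasts, Lum (lumican, a small proteoglycan of collagen fibrils) in 88.1% and Dpt (dermatopontin) in 80.6%. In the macrophage class of the same libraries (12430 thinned cells with at least 10 C1q UMIs) these shares were 26.4%, 0.282% and 0.362%. In the endothelial class (1405 thinned cells with at least 4 UMIs of Pecam1, Cdh5 and Kdr) they were 3.42%, 0.498% and 0.214%. Both of these classes were also limited to cells with fewer than 4 UMIs summed over the matrix genes of the rule. Cells with more matrix RNA were thus left out of them before any gene was compared. Dcn, a gene of the rule, was seen in 97.1% of thinned fibroblasts. Its shares of 2.13% in macrophages and 1.35% in endothelial cells were kept low by that limit and do not check the label. The given marker Pdgfra, the PDGF receptor of mesenchymal cells, was seen in 50.5% against 0.0483% and 0.641%. Tcf21, the transcription factor of the resident cardiac fibroblast lineage, was detected in 34.7% of fibroblasts, in 0.105% of macrophages and in 0 of 1405 endothelial cells. Without thinning, Gsn was detected in 99.6%, Dcn in 97.9%, Pdgfra in 80.9% and Tcf21 in 64.1% of the 471 fibroblasts. By library, Lum was found in 85.3% to 92.9% and Dpt in 78.3% to 85.3% of the thinned fibroblasts. Thinning left out 27 shallow fibroblasts, 9 of them from the 37 of knockout-labelled library 2, so these shares do not cover them.

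**Figure D1:**
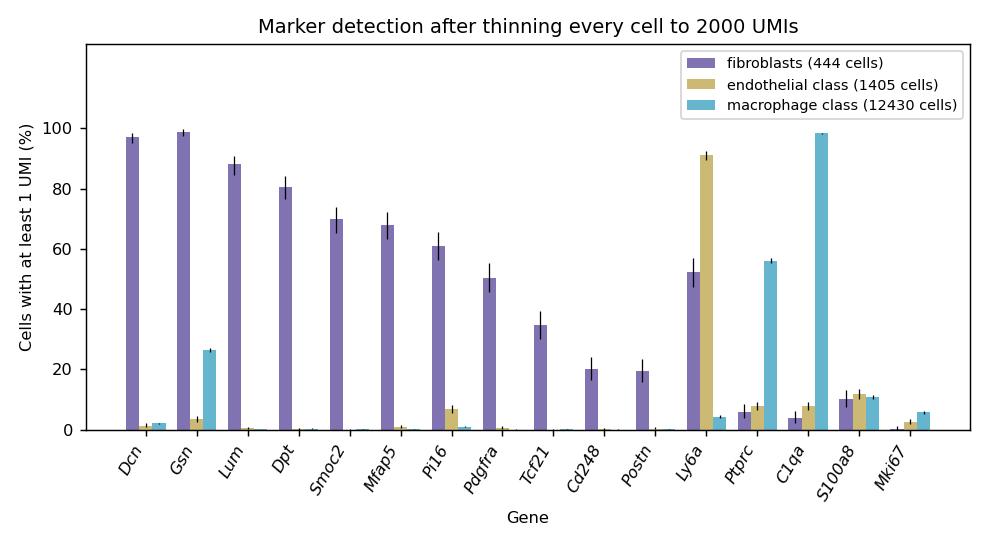
Percentage of cells with at least 1 UMI of each gene after thinning to 2000 UMIs, in fibroblasts (444 cells), the endothelial class (1405 cells) and the macrophage class (12430 cells), summed over the 6 libraries; bars are shares and lines exact 95% binomial intervals, which cover counting error only. Dcn, Gsn, Lum and Dpt are found in over 80% of the fibroblasts, Ptprc in 5.86% of them, and C1qa in 98.3% of the macrophages.

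The sort marker itself was scarce in these cells. Ptprc UMIs were present in 51 of the 471 fibroblasts, and after thinning in 5.86% of them, against 56.1% of macrophages and 7.83% of endothelial cells, a class that should not express the gene. Ptprc levels were 26.6 and 67.5 CPM in the sham fibroblasts, 24.8 and 61.0 CPM after irradiation, and 32.8 and 107 CPM in the knockout-labelled libraries, so the 3 groups overlapped. Cells close to the limit of the rule looked less like fibroblasts than the rest. The 30 members with 8 to 19 matrix UMIs had a median of 1533 UMIs in all and 36.7% of them held Ptprc, the 22 cells just outside it, with 4 to 7 matrix UMIs, had a median of 1030 UMIs and 27.3% held Ptprc, and the 361 members with 100 or more had a median of 7589 UMIs and 9.42% held Ptprc.

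RNA of other cell types was present at low levels and was uneven between libraries. The summed level of 16 macrophage genes ranged from 387 to 2328 CPM, that of 10 leukocyte genes from 273 to 1150 CPM and that of 11 neutrophil genes from 472 to 9208 CPM, the highest in sham library 2. The neutrophil genes S100a8 and S100a9 made up most of the latter, with S100a8 at 25.2 and 4177 CPM in the sham libraries, and 4 of the sham library 2 cells held 476 to 785 S100a8 UMIs each. S100a8 was detected in 10.1% of thinned fibroblasts, 11.8% of endothelial cells and 10.9% of macrophages, so its share in fibroblasts was at the level of cells that should lack it. The 14 lymphocyte genes summed to 39.0 to 304 CPM, the 13 endothelial genes to 118 to 221 CPM, the 11 mural genes to 163 to 535 CPM, the 8 Schwann cell genes to 28.4 to 283 CPM and the 12 cardiomyocyte genes to 110 to 404 CPM. Of the 10 mesothelial genes, 7 were at 0 in every library (Upk3b, Msln, Upk1b, Lrrn4, Krt8, Krt18 and Muc16). Scores for doublets marked 40 of the 471 fibroblasts. The part of these other cells' RNA in the comparisons below was not tested except by leaving cells out. Those fits are given beside a few results and otherwise in the section on processing.

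Clustering split the 471 cells into 9 groups, which are given as a description of the range of cells the rule admitted. Ly6a (Sca-1), Ackr3, Atf3, Cxcl1 and Gfpt2 led a cluster of 66 cells. Pi16, Clec3b and Smoc2 led a cluster of 74, and Col8a1, Thbs1, Ccn2 and Meox1 a cluster of 67. A cluster of 29 cells was led by Dkk3, Postn, Prg4 and Ecrg4. Apoe led clusters of 88 and 96 cells. In the cluster of 96, Mt1, Cxcl1, Fbln1 and the immediate early genes Fosb, Fos, Junb and Egr1 came next. A few sets are given apart for their leading genes. One held 33 cells with Il1b, S100a8, Srgn and Lyz2, a median of 18 matrix UMIs and Ptprc in 75.8% of cells. It took in 10 cells of knockout-labelled library 2, or 27.0% of that library's fibroblasts, against 2.52% to 7.37% in each other library. The levels given for that library include these cells. Another held 7 cells with Kcna1, Scn7a and S100b, genes of Schwann cells, and a median of 15 matrix UMIs. The leading genes of both sets go against the fibroblast label. The remaining 11 cells, with Ifit3, Ifit1, Iigp1 and Isg15, genes raised by interferon, came from 5 of the 6 libraries.

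Fibroblasts made up 2.53% (95% Wilson interval 2.12% to 3.02%) and 1.75% (1.46% to 2.11%) of kept cells in sham. After irradiation of wild-type hearts they made up 0.974% (0.698% to 1.36%) and 1.5% (1.23% to 1.83%). In the knockout-labelled libraries the shares were 1.32% (1.05% to 1.64%) and 0.6% (0.436% to 0.826%). Both irradiated wild-type libraries thus lay below both sham libraries. The group means were 2.14% ± 0.553 (SD, n = 2) in sham, 1.24% ± 0.372 after irradiation and 0.958% ± 0.506 in the knockout-labelled group. The difference between irradiated and sham wild type was -0.907 percentage points (exact permutation test, two-sided, p = 0.333, the smallest p that 2 against 2 libraries can give). The difference between knockout-labelled and wild type after irradiation was -0.279 percentage points (exact permutation test, two-sided, p = 0.667) and became 0.0792 without knockout-labelled library 2. These are shares of cells that passed a CD45 sort, whose purity the labels do not give, and they say nothing of the number of fibroblasts in the heart.

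**Figure D2:**
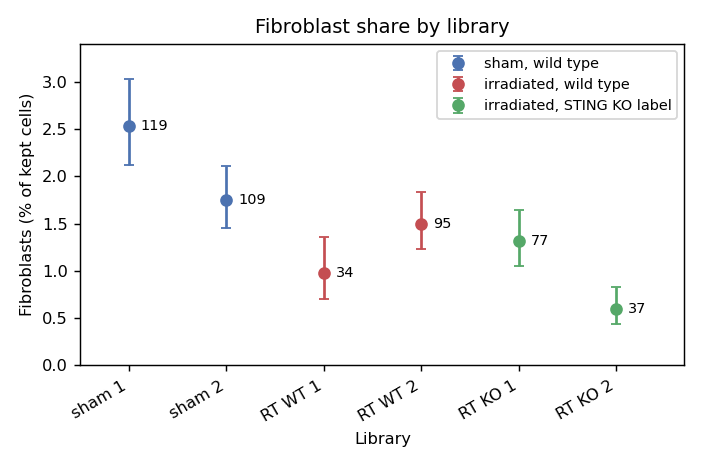
Fibroblasts as a percentage of kept cells in each of the 6 libraries; points are shares, bars 95% Wilson intervals (counting error only) and the numbers beside the points are the fibroblasts counted. The sham libraries stand at 2.53% and 1.75%, above the irradiated wild-type libraries at 0.974% and 1.5%.

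The matrix genes that chose the cells were abundant in every group. Dcn, which encodes the collagen-binding proteoglycan decorin, was at 19322 and 20573 CPM in sham, 18471 and 17990 CPM after irradiation, and 16294 and 12782 CPM in the knockout-labelled libraries. Col1a1, the alpha 1 chain of collagen I, was at 1389 and 1402, 1180 and 1387, and 1651 and 1581 CPM in the same order, and Col3a1, the chain of collagen III, at 2840 and 3161, 2853 and 3135, and 3380 and 3776 CPM. Dcn was lowest in the knockout-labelled libraries and Col3a1 highest there, and neither was compared by a test, since the rule used them. Pdgfra was at 548 and 426 CPM in sham, 319 and 371 CPM after irradiation and 351 and 324 CPM in the knockout-labelled group. Both sham values of Pdgfra lay above the other 4, with a log2 fold change of -0.49 for irradiation (edgeR adjusted p = 0.853).

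The targeted gene of the knockout gave no clear check of the labels. Tmem173 was at 7.0 and 5.4 CPM in sham fibroblasts, 14.2 and 31.3 CPM after irradiation and 18.6 and 18.9 CPM in the knockout-labelled libraries, and was found in 36 of the 471 cells. The knockout-labelled libraries lay between the irradiated wild-type values, with a log2 fold change of -0.42 (edgeR adjusted p = 0.916). Reads from the 3' end of a transcript do not check a deletion that leaves that end in place, so these counts do not check the label.

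Irradiation of wild-type hearts was compared in 8245 genes tested outside the rule, and none passed an adjusted p of 0.05. The share of genes called was 0.0% in edgeR's quasi-likelihood test, with 444 genes at an unadjusted p under 0.05, and DESeq2 called 0 as well. The count depended on single libraries. Without irradiated wild-type library 2 the same test called 27 genes (26 higher, among them Ifit1, Ifit3 and Cxcl10, and Cilp lower), without irradiated wild-type library 1 it called 5 (Igkc, H2-Ab1, H2-Aa, H2-Eb1 and Cd74, all higher), and without sham library 1 it called Cxcl2 lower. A few cells held most of the UMIs of some of these genes, as given below. An alternative chosen after seeing the data limited each gene's count in a cell to its 98th percentile over the 471 fibroblasts, and with these capped counts 0.065% of 7694 genes were called, which were H2-D1, H2-K1, Gas6, Iigp1 and Nr1d1, all higher after irradiation.

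Genes of MHC class I, the complex that shows peptides from inside the cell to CD8 T cells, were 2 of these 5. H2-D1 (ENSMUSG00000073411, chr17:35262730-35267499, plus strand, GRCm38), a heavy chain of MHC class I, was at 873 and 894 CPM in sham, 1914 and 1484 CPM after irradiation and 810 and 1059 CPM in STING KO. Both irradiated wild-type libraries exceeded all 4 others. The log2 fold change for irradiation was 0.94 ± 0.17 (SE; edgeR adjusted p = 0.604), and with capped counts H2-D1 rose by 0.82 ± 0.13 (adjusted p = 0.0175). H2-K1 (ENSMUSG00000061232, chr17:33996017-34000347, minus strand), the other classical heavy chain of this strain, was at 611 and 559 CPM in sham, 1247 and 1133 CPM after irradiation and 580 and 902 CPM in the knockout-labelled group. Its log2 fold change was 1.02 ± 0.20 (adjusted p = 0.604) and with capped counts it rose by 0.82 ± 0.13 (adjusted p = 0.0232). These 2 genes and the other H2 genes are close relatives, and reads they share could be lost or divided by the authors' counting. The share of thinned fibroblasts with an H2-K1 UMI, which no single cell can dominate, was 61.4% and 54.7% in sham, 79.4% and 71.0% after irradiation and 59.4% and 64.3% in the knockout-labelled libraries, and 92.1% of all thinned macrophages held one.

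B2m, the light chain shared by all MHC class I molecules, was at 1163 and 982 CPM in sham, 2144 and 1661 CPM after irradiation and 901 and 1544 CPM in the knockout-labelled libraries (log2 fold change for irradiation 0.82 ± 0.23, adjusted p = 0.75). Tap1, which carries peptides into the endoplasmic reticulum, was at 23.8 and 16.2, 53.2 and 56.6, and 32.8 and 40.9 CPM. Both genes stood higher in the 2 irradiated wild-type libraries than in the 2 sham libraries, without passing the test. Of the list of 20 MHC class I genes, 19 were tested, 18 had a log2 fold change above 0 for irradiation and 15 did not overlap between the groups, where 17.1% of all tested genes lay wholly above sham. The list's median was 0.71 against -0.01 for all tested genes, and 0.65 to 0.92 when 1 library was left out. With no filter on low counts, 19 of the 20 genes had a higher mean after irradiation.

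**Figure D3:**
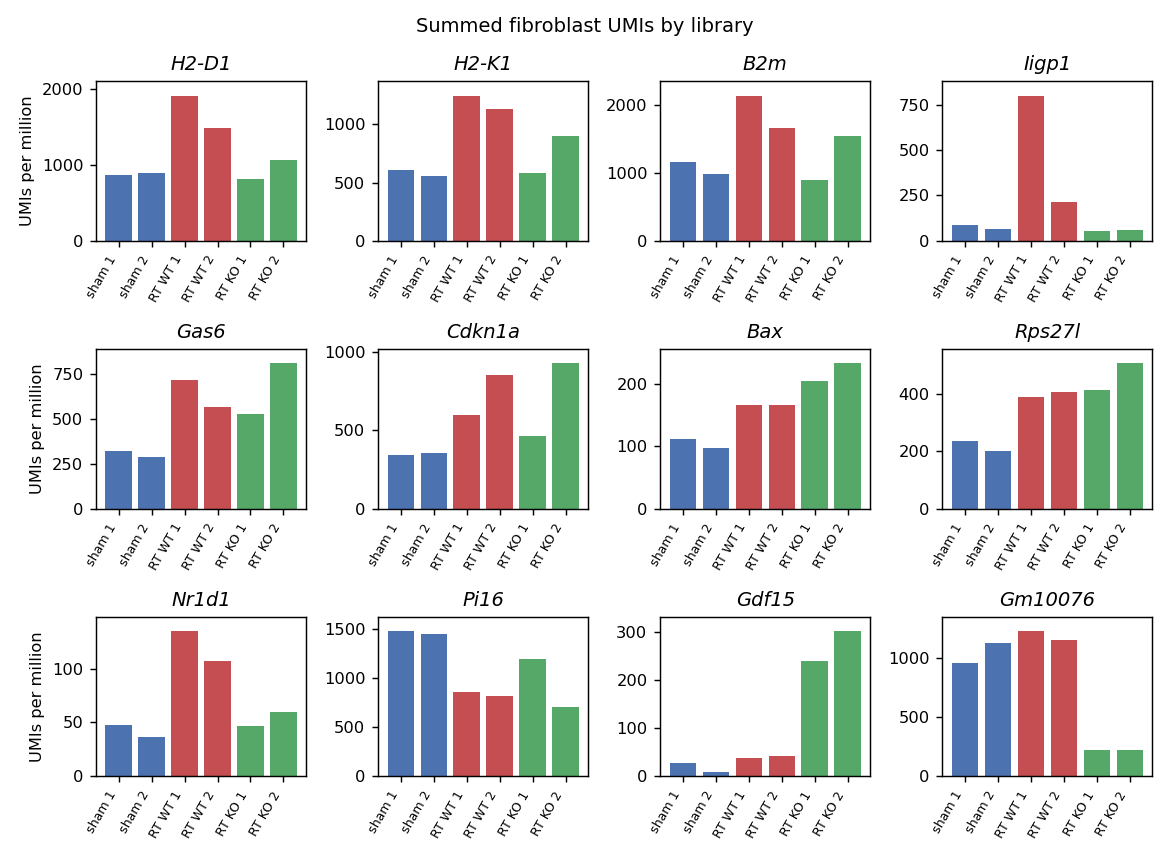
Level of 12 genes in the fibroblasts of each of the 6 libraries, in CPM from UMIs summed over cells (TMM-scaled), with 1 bar per library, coloured by group (blue sham, red irradiated wild type, green irradiated with the STING KO label) and a separate axis from 0 for each gene. H2-D1 stands at 1914 and 1484 in irradiated wild type and at 810 to 1059 in the others; Gm10076 stands at 221 and 226 in the knockout-labelled libraries and at 952 to 1223 in the others.

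Interferon-stimulated genes had higher values in the irradiated wild-type libraries, by amounts that differed widely between the 2. Iigp1, an interferon-inducible GTPase that attacks the vacuoles of intracellular parasites, was at 85.5 and 63.5 CPM in sham, 801 and 211 CPM after irradiation and 52.8 and 59.7 CPM in the knockout-labelled libraries. Both irradiated wild-type values were above all others, and with capped counts Iigp1 rose by 1.35 ± 0.20 (log2; adjusted p = 0.0175), against 2.71 ± 0.51 (adjusted p = 0.604) with all counts. Iigp1 was detected in 11.4% and 9.43% of thinned sham fibroblasts, in 23.5% and 21.5% after irradiation and in 5.80% and 10.7% in the knockout-labelled libraries. The antiviral gene Ifit1, which binds foreign RNA, was at 19.6 and 21.6 CPM in sham, 957 and 71.5 CPM after irradiation and 37.1 and 3.1 CPM in the knockout-labelled libraries. The T cell attracting chemokine Cxcl10 was at 35.0 and 77.0, 2874 and 93.8, and 81.4 and 6.3 CPM. Irf7, the transcription factor that amplifies type I interferon, was at 11.2 and 33.8, 195 and 61.0, and 17.1 and 22 CPM. For Ifit1, Cxcl10 and Irf7 irradiated wild-type library 1 was several times above library 2, and none of the 3 passed the test (adjusted p = 0.75 for each). With the replicate number as a block the edgeR test called Ifit1 (4.09, adjusted p = 0.0407), Ifit3 (3.42, adjusted p = 0.0407), Iigp1 (2.56, adjusted p = 0.0368) and Igtp (2.53, adjusted p = 0.0485) higher after irradiation. The labels do not pair libraries by number, so these calls rest on a block without a known basis.

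This excess lay in few cells. In irradiated wild-type library 1, 2 of the 34 fibroblasts held 796 of the library's 811 Cxcl10 UMIs (572 in 1 of them), 254 of its 270 Ifit1 UMIs and 156 of its 226 Iigp1 UMIs. Neither cell was scored as a doublet or held a Ptprc UMI, and they held 229 and 361 matrix UMIs. The 2 leading cells of that library held 82.7% of its UMIs of the 21 interferon-gamma inducible genes, against 7.93% to 26.4% in the other 5 libraries. The median share of a fibroblast's UMIs from the list was 0.0458% and 0.0467% after irradiation, and 0.0401% and 0.0304% in sham, so by this measure the groups did not overlap and lay close together.

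**Figure D4:**
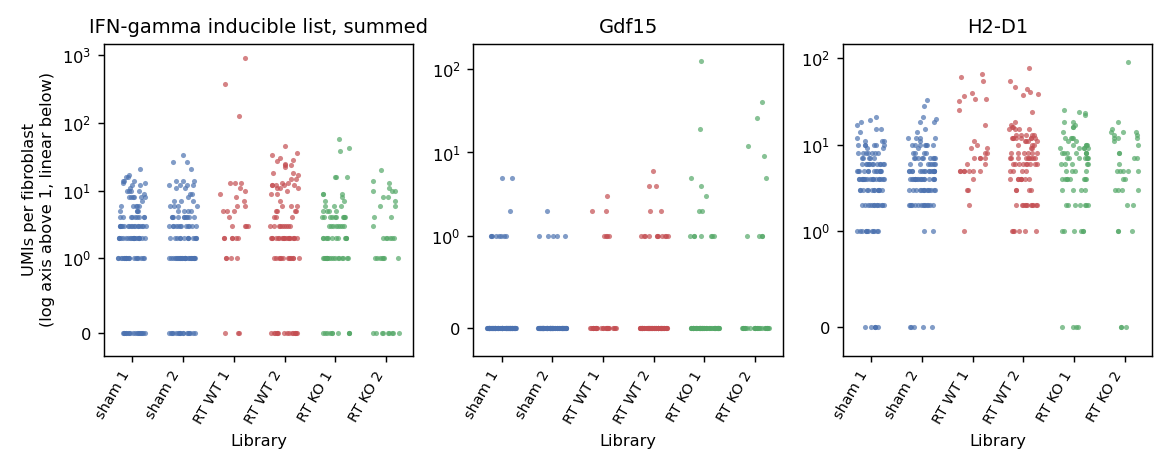
UMIs per fibroblast, 1 point per cell, in each of the 6 libraries (linear axis below 1, log axis above), for the summed list of interferon-gamma inducible genes, for Gdf15 and for H2-D1. A few cells stand far above the rest in the first 2 panels, such as the fibroblast of knockout-labelled library 1 with 126 Gdf15 UMIs, while H2-D1 is spread over most cells.

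Ifi27l2a and Ly6e, the most abundant of the interferon-stimulated genes, were at 1259 and 1689 CPM and at 300.0 and 365 CPM in sham, and at 2626 and 1380 CPM and at 532 and 493 CPM after irradiation. Over the list of 52 interferon-stimulated genes, 48 were in the files and 40 were tested. All 40 had a log2 fold change above 0 for irradiation and 29 did not overlap between the groups, against 17.1% of all tested genes. The median was 1.29, and 0.60 with capped counts, with 34 of 35 tested genes above 0. It was 0.53, with 33 of 40 above 0, without irradiated wild-type library 1, and 1.99 without library 2. Since a gene can pass the filter on low counts through the high group alone, the means of every gene with a UMI were also compared, and 46 of 47 were higher after irradiation. For the interferon-gamma inducible list 12 of 21 genes were tested, with a median of 1.97, and 0.57 without irradiated wild-type library 1. In the comparison of knockout-labelled with wild-type libraries after irradiation, which shares the irradiated wild-type libraries, all 40 interferon-stimulated genes lay below 0 with a median of -0.98, and 23 did not overlap, where 17.5% of all tested genes lay wholly below. That median was -0.35, with 5 of 40 above 0, without irradiated wild-type library 1, and -1.76 without irradiated wild-type library 2. It was -1.75 without knockout-labelled library 1 and -0.49 with capped counts. Between knockout-labelled and sham libraries their median was 0.07, with 22 above and 18 below 0. In these comparisons the edgeR test without a block called no gene of either list with all counts and Iigp1 with capped counts, for irradiation and for genotype. Between genotypes DESeq2 called Iigp1 (adjusted p = 0.00852) and Rsad2 (adjusted p = 0.0463) lower. The edgeR test with the replicate number as a block called Iigp1, Ifit1, Ifit3, Igtp, Irgm1 and Rsad2 lower, though the labels do not pair libraries by number.

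The promoters of B2m and Ifit1 are shown for the sequence through which interferons act on such genes. The windows below are the 250 bases before the RefSeq start of B2m (chr2:122147437-122147686, plus strand) and of Ifit1 (chr19:34640639-34640888, plus strand), in build GRCm38.p6, with matches to the core of the interferon response element in capitals. The core searched was GAAA, any 2 bases, then GAAA, on either strand. B2m holds 1 match that starts 139 bases before the transcription start, and Ifit1 holds 2, which start 104 and 85 bases before it.
B2m: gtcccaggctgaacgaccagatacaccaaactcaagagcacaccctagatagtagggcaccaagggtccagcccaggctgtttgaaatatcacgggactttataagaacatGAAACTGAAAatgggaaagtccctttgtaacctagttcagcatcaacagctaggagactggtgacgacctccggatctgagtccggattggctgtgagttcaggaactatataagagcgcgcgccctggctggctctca
Ifit1: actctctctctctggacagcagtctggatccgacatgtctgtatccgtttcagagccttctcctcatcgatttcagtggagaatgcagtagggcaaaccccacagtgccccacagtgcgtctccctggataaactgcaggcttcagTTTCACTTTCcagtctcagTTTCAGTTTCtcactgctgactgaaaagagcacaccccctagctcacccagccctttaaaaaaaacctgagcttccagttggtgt
The core was found in 978 of 32851 RefSeq windows of this length (2.98%). Counted by gene, with a match in any of its windows, the core was found in 936 of 27025 (3.46%). It was found in 14 of the 35 interferon-stimulated genes with a window, in 11 of 14 interferon-gamma inducible genes and in 3 of 17 MHC class I genes. The windows of H2-K1, H2-D1 and Irf7 held no match, which says only that these letters are not in that window. A match is a description of the sequence and not evidence that a factor binds there in these cells.

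Gas6, a secreted ligand of the Axl and Mertk receptors that bridges dying cells to phagocytes, was higher in both irradiated groups. It was at 324 and 288 CPM in sham, 716 and 570 CPM after irradiation and 527 and 811 CPM in the knockout-labelled libraries, so all 4 irradiated libraries lay above sham. The log2 fold change for irradiation was 1.07 ± 0.22 (edgeR adjusted p = 0.604), and with capped counts Gas6 rose by 1.06 ± 0.17 (adjusted p = 0.0175). It was detected in 41.2% and 34.0% of thinned sham fibroblasts, in 58.8% and 57% after irradiation and in 62.3% and 64.3% in the knockout-labelled group. In macrophages of the same libraries Gas6 fell, from 364 and 365 CPM to 238 and 272 CPM (log2 fold change -0.51 ± 0.09, adjusted p = 0.0153), and the difference between the 2 radiation effects was 1.58 ± 0.24 (log2; interaction in edgeR, adjusted p = 0.00315). Nr1d1, a repressor of the circadian clock, was at 47.7 and 36.5 CPM in sham, 135 and 107 CPM after irradiation and 47.1 and 59.7 CPM in the knockout-labelled group. With capped counts it rose by 1.46 ± 0.25 (adjusted p = 0.0232). The labels give no time of day for the collections.

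Most targets of p53 had higher values after irradiation, and none passed the test for irradiation in fibroblasts. Cdkn1a, which encodes the cell cycle inhibitor p21, was at 341 and 357 CPM in sham, 599 and 850 CPM after irradiation and 464 and 927 CPM in the knockout-labelled libraries (log2 fold change for irradiation 1.06 ± 0.29, adjusted p = 0.75). The death effector Bax was at 111 and 97.3, 167 and 165, and 204 and 233 CPM. Phlda3, an inhibitor of Akt, was at 107 and 162, 298 and 217, and 244 and 233 CPM. Rps27l, a ribosomal protein paralog induced by p53, was at 234 and 201, 390 and 408, and 413 and 506 CPM. The most abundant gene of the list, the antiproliferative Btg2, was near its sham level, at 964 and 957, 1053 and 965, and 842 and 934 CPM. For Cdkn1a, Bax, Phlda3 and Rps27l the 4 irradiated libraries all lay above the 2 sham libraries. Cdkn1a was detected in 32.5% and 34.9% of thinned sham fibroblasts, in 52.9% and 59.1% after irradiation and in 44.9% and 67.9% in the knockout-labelled libraries.

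Of the list of 34 p53 targets 26 were tested, 23 had a log2 fold change above 0 for irradiation and 18 did not overlap, against 17.1% of all tested genes. The median was 0.69, and 0.33 to 0.77 when 1 library was left out. Between knockout-labelled and sham libraries the median was 1.02, with 22 of 26 above 0. In that comparison 0.0485% of tested genes were called in either direction with all counts and 0.312% with capped counts, and the latter called Rps27l, which rose by 1.01 ± 0.17 (adjusted p = 0.00601).

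Windows of 250 bases before the RefSeq start of Cdkn1a (chr17:29090729-29090978, plus strand) and Bax (chr7:45466899-45467148, minus strand), in GRCm38.p6, are shown for the site that p53 reads, with matches to the 10-base unit of that site in capitals, searched on either strand. Cdkn1a holds 2, which start 73 and 51 bases before the transcription start of this transcript, and Bax holds 1, which starts 201 bases before it.
Cdkn1a: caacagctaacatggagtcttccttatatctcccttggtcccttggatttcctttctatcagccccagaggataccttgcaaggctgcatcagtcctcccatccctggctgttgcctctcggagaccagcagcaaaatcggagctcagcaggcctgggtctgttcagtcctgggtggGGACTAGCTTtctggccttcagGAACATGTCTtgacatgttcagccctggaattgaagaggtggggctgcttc
Bax: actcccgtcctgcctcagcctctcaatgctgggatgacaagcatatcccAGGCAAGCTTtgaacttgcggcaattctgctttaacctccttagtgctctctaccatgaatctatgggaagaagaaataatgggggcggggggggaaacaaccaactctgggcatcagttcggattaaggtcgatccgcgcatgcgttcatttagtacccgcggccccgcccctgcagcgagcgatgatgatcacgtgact
The unit was found in 2341 of 32851 windows (7.13%). Counted by gene, with a match in any of its windows, it was found in 2216 of 27025 (8.2%) and in 10 of the 25 p53 targets with a window. Gdf15, Gas6 and Phlda3 had none in theirs. The window of another RefSeq start of Cdkn1a (chr17:29093519-29093768, plus strand) held none either. Rps27l had none in the window at chr9:66945836-66946085 and 2 in that at chr9:66946163-66946412.

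The p53 targets were also compared with the endothelial cells of these libraries. Of the 26 genes tested in both classes 19 had a smaller radiation effect in fibroblasts than in the endothelial class, with medians of 0.69 and 1.17. In the endothelial class 15 of the 26 rose and none fell, where 4.69% of its 10292 tested genes were called. The difference between the effects was tested directly over 10840 genes, of which 0.148% were called (8 higher in fibroblasts, 8 lower). Among the 8 with the lower effect in fibroblasts were 3 of the p53 list: Gdf15 (-3.47 ± 0.36, adjusted p = 0.00442), Phlda3 (-1.95 ± 0.31, adjusted p = 0.0405) and Bax (-1.38 ± 0.23, adjusted p = 0.0408). Over the 33 genes of the list in this test the difference had a median of -0.25, with 22 below 0. Against macrophages the difference had a median of 0.34 over 34 genes of the list, with 9 below 0 and none called. Endothelial Bax was at 159 and 149 CPM in sham and 664 and 627 CPM after irradiation, against 111 and 97.3, and 167 and 165 CPM in fibroblasts. Endothelial Gdf15 was at 37.8 and 16.2 CPM in sham and 590 and 737 CPM after irradiation, against 28.0 and 9.5, and 39.0 and 43.2 CPM in fibroblasts. These calls were sensitive to which cells were kept. With scored doublets removed 1 of the 16 calls was left, and with the mitochondrial limit at 5% 4 of the 16 were called. Gdf15 was called in neither (adjusted p = 0.188 in each), with differences of -3.44 and -2.94 that were close to the -3.47 with all cells. The calls against endothelial cells ran from 6 without knockout-labelled library 2 to 100 without irradiated wild-type library 2.

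**Figure D5:**
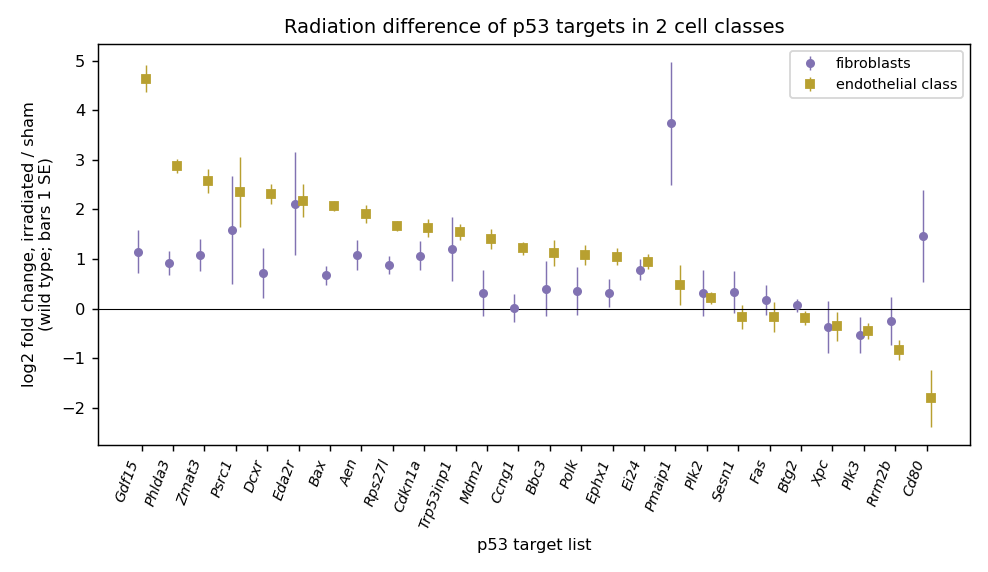
log2 fold change of irradiated over sham wild-type libraries for 26 p53 targets, in fibroblasts (circles) and in the endothelial class (squares), with bars of 1 SE. Gdf15 stands at 1.15 in fibroblasts and 4.63 in endothelial cells, Bax at 0.67 and 2.07, and 19 of the 26 genes lie lower in fibroblasts.

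Several other genes of that comparison had small radiation effects in fibroblasts and larger ones in endothelial cells. Tgfbi, a matrix protein induced by TGF-beta, was at 122 and 177 CPM in sham fibroblasts and 113 and 152 CPM after irradiation, against 59.2 and 75.2, and 7.8 and 9.8 CPM in endothelial cells (difference 2.77 ± 0.31, adjusted p = 0.00551). Thbs1, the matricellular protein thrombospondin, was at 826 and 1216, and 943 and 965 CPM in fibroblasts, against 75.7 and 212, and 34.6 and 26.6 CPM (difference 2.03 ± 0.29, adjusted p = 0.0278). Sparc, a collagen-binding glycoprotein, was at 2531 and 3263, and 3129 and 3364 CPM in fibroblasts, against 1920 and 2764, and 5147 and 4645 CPM (difference -0.90 ± 0.13, adjusted p = 0.0278). Against macrophages 0.11% of 13617 genes differed in their radiation effect, 12 with the higher effect in fibroblasts and 3 with the lower. They included Ccn1, a matricellular immediate early gene, at 1194 and 793 CPM in sham fibroblasts and 602 and 764 CPM after irradiation, against 83.1 and 77.2, and 10.0 and 26.7 CPM in macrophages (difference 1.72 ± 0.28, adjusted p = 0.00745). Ly6a was at 761 and 935, and 1956 and 1042 CPM in fibroblasts, against 15.5 and 16.1, and 142 and 62.4 CPM in macrophages (difference -1.81 ± 0.33, adjusted p = 0.0203). The number of calls against macrophages ran from 11 to 95 as single libraries were left out, highest without sham library 1.

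The genotype comparison, of knockout-labelled with wild-type libraries after irradiation, called 4 genes, or 0.0485% of those tested. Of these, 3 rose and 1 fell. Gm10076 (ENSMUSG00000060143, chr14:105681828-105682211, plus strand), annotated as a long noncoding RNA, was at 1223 and 1152 CPM in irradiated wild type against 221 and 226 CPM in STING KO, and fell by 2.41 ± 0.16 on the log2 scale (edgeR adjusted p = 0.000237). Gm42418 (chr17:39846958-39848788, plus strand) and AY036118 (chr17:39847113-39848035, minus strand), transcripts that overlap on opposite strands, were at 709 and 726 against 2697 and 2675 CPM, and at 35.4 and 31.3 against 294 and 167 CPM. They rose by 1.90 ± 0.15 (adjusted p = 0.000594) and 2.85 ± 0.33 (adjusted p = 0.0191), and reads of the 2 may not be told apart. Sham fibroblasts stood with the irradiated wild type, at 952 and 1125 CPM for Gm10076 and 1011 and 786 CPM for Gm42418. The same held in the other cell classes, with Gm10076 at 272 and 312 CPM in endothelial cells and 275 and 283 CPM in macrophages, against 1198 to 1598 and 979 to 1432 CPM in the other 4 libraries. Endothelial Gm42418 was at 4234 and 4142 CPM in STING KO and at 1576 to 2535 CPM in the other 4 libraries. The difference between fibroblasts and endothelial cells in the Gm10076 genotype effect was -0.08 ± 0.17. A batch of library preparation that coincides with the label cannot be told apart from genotype here.

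Gdf15, a stress-induced hormone of the TGF-beta family and a p53 target, was the other gene called. Gdf15 (ENSMUSG00000038508, chr8:70629393-70632456, minus strand) was at 28.0 and 9.5 CPM in sham, 39.0 and 43.2 CPM after irradiation and 240 and 302 CPM in the knockout-labelled libraries, and rose by 2.68 ± 0.34 on the log2 scale between the irradiated groups (edgeR adjusted p = 0.0281). The level lay in few cells. In knockout-labelled library 1, 126 of 168 Gdf15 UMIs were in 1 of 77 fibroblasts, a cell scored as a doublet, and in library 2 the leading 2 of 37 fibroblasts held 66 of 96. With capped counts the log2 fold change was 0.64 ± 0.38 (adjusted p = 0.736), with scored doublets removed 2.06 (adjusted p = 0.656), and without any 1 of the 4 irradiated libraries it was 2.51 to 2.84 with an adjusted p between 0.0777 and 0.132. The share of thinned fibroblasts with Gdf15 was 5.26% and 1.89% in sham, 5.88% and 11.8% after irradiation and 8.70% and 17.9% in the knockout-labelled group, against 41.7% and 40.3% of endothelial cells after irradiation. The genotype effect on Gdf15 was higher in fibroblasts than in endothelial cells by 2.84 ± 0.26 (adjusted p = 0.00124) and than in macrophages by 3.43 ± 0.28 (adjusted p = 1.03e-07). In those comparisons 0.0185% and 0.00734% of genes were called, and the first was lost with scored doublets removed, at 2.07.

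With capped counts the genotype comparison called 20 genes (0.26%), 5 higher and 15 lower. H2-D1 fell by 0.80 ± 0.13 (adjusted p = 0.0103) and Iigp1 by 1.69 ± 0.23 (adjusted p = 0.0016), the 2 genes that had been higher in the irradiated wild-type libraries, which this comparison shares. Mmp3, a stromelysin that cleaves many matrix proteins, was at 175 and 280 CPM in sham, 106 and 75.9 CPM after irradiation and 236 and 274 CPM in the knockout-labelled group, and rose by 1.26 ± 0.22 (adjusted p = 0.0167). Aldh1a3, an enzyme of retinoic acid synthesis, was at 30.8 and 8.1, 7.1 and 11.9, and 52.8 and 47.2 CPM and rose by 2.42 ± 0.41 (adjusted p = 0.0146). Nfkbia, the inhibitor of NF-kB, was at 377 and 381, 383 and 584, and 243 and 220 CPM and fell by 0.97 ± 0.17 (adjusted p = 0.0199). Ccl7, a chemokine for monocytes, was at 161 and 223, 365 and 319, and 62.8 and 129 CPM and fell by 1.35 ± 0.27 (adjusted p = 0.0369). Ribosomal protein genes were 6 of those that fell, Rps27 by 0.57 ± 0.10 (adjusted p = 0.0154) among them. DESeq2 called 21 genes (4 higher, 17 lower), and without irradiated wild-type library 2 the edgeR test called 25 (1 higher, 24 lower).

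Between irradiated knockout-labelled and sham wild-type libraries, where radiation and genotype differ together, the same test called Gdf15, Gm42418 and AY036118 higher and Gm10076 lower. The first was higher by 3.83 ± 0.35 (adjusted p = 0.00216). With capped counts Gsn, the actin-severing protein gelsolin, fell by 0.65 ± 0.09 (adjusted p = 0.00223), from 33763 and 33099 CPM in sham to 23538 and 17812 CPM, with 27465 and 26858 CPM in the irradiated wild type. Gas6 rose by 1.04 ± 0.17 (adjusted p = 0.00457) in that fit. Bax had a log2 fold change of 1.06 ± 0.19 (adjusted p = 0.129) with all counts.

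The programme of matrix production showed no gene called after irradiation. Of 16 further collagen genes all were tested, 5 were above and 11 below 0, with a median of -0.08. Col15a1, a basement membrane collagen, was at 903 and 1050 CPM in sham and 904 and 953 CPM after irradiation, and Col6a1 at 844 and 1028, and 734 and 884 CPM. Of 24 glycoproteins and proteoglycans 20 were below 0 (median -0.24), with Mgp, an inhibitor of calcification, at 12601 and 10965, and 11939 and 7856 CPM, and Bgn, biglycan, at 3536 and 4012, and 3058 and 3549 CPM. The 20 genes of fibroblast identity had a median of -0.22, 17 of them below 0, and 13 did not overlap, against 18.6% of all tested genes wholly below sham. The 18 tested genes of crosslinking and collagen processing had a median of -0.03 and included Serpinh1, the collagen chaperone, at 928 and 1277, and 1215 and 1274 CPM, and Loxl1, an elastin crosslinker, at 629 and 651, and 524 and 539 CPM. The 17 tested proteases and inhibitors had a median of -0.04, with Timp2 at 1292 and 1211, and 1120 and 991 CPM, and Timp3 at 1085 and 735, and 975 and 862 CPM.

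No activation marker passed the test for irradiation with all counts. Of 16 tested genes of activated fibroblasts and myofibroblasts 9 were above and 7 below 0 (median 0.12). Postn, periostin, was at 300.0 and 320 CPM in sham, 216 and 442 CPM after irradiation and 447 and 707 CPM in the knockout-labelled libraries, and was detected in 19.6% of thinned fibroblasts. Cilp, a matrix protein of injured myocardium, was at 313 and 403 CPM in sham, 7.1 and 122 CPM after irradiation and 77.1 and 94.3 CPM in the knockout-labelled group, so both sham values lay above the other 4 (log2 fold change -2.21 ± 0.55, adjusted p = 0.75). Without irradiated wild-type library 2 Cilp fell by 5.63 on the log2 scale (adjusted p = 0.00158), a value set by the 2 Cilp UMIs of library 1. Acta2, smooth muscle actin, was at 472 and 93.2, 2576 and 290, and 290 and 18.9 CPM, but single cells weighed heavily. In irradiated wild-type library 1, 721 of the 727 UMIs came from 1 cell with 63 UMIs of the smooth muscle gene Myh11 and 14 matrix UMIs. In sham library 1, irradiated wild-type library 2 and knockout-labelled library 1, the leading cell held 308, 149 and 136 Acta2 UMIs, with 57, 15 and 3 of Myh11. With the replicate number as a block, which the labels do not give as a pairing, Acta2 and Tagln were among 8 genes called.

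No marker of the adventitial, or universal, fibroblast passed the test for irradiation. Pi16, a peptidase inhibitor that marks this state, was at 1479 and 1454 CPM in sham, 858 and 819 CPM after irradiation and 1191 and 707 CPM in the knockout-labelled libraries. All 4 irradiated libraries lay below sham, with a log2 fold change of -0.81 ± 0.21 (adjusted p = 0.75) and with capped counts of -0.72 ± 0.14 (adjusted p = 0.0708). The share of thinned fibroblasts with Pi16 was 64% and 66% in sham, 50% and 51.6% after irradiation and 68.1% and 57.1% in the knockout-labelled group. Cd248, endosialin, was at 178 and 172, 174 and 161, and 191 and 81.7 CPM, and was detected in 20.05% of thinned fibroblasts. Dpp4 was seen in 2.70%, Comp in 4.28%, and Wif1, an inhibitor of Wnt signalling, in 2.48%. Proliferation was rare: Mki67 and Top2a were each detected in 0.225% of thinned fibroblasts, against 5.73% and 5.61% of macrophages. Of 17 tested adventitial genes 11 were below 0 for irradiation, with a median of -0.12.

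Across single fibroblasts the genes most like Dcn were other matrix and secreted genes. Over the 444 thinned cells and 1243 genes, ranked by the mean of the within-library Spearman correlations of thinned counts, the leading 10 were Lum (0.28), Dpep1 (0.28), Crispld2 (0.27), Mgp (0.27), Itm2b (0.25), Igfbp7 (0.25), Serping1 (0.25), Dpt (0.24), Igfbp4 (0.24) and Ccdc80 (0.23). These correlations are weak, come from sparse counts of cells that share a library, and are given as a description. Pi16 went with Ly6a (0.35) and Cd248 (0.30), both genes of the adventitial state, and Pi16 with Postn at -0.01.

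In the signalling and stress lists no gene passed the test for irradiation with all counts. Of 21 tested TGF-beta pathway genes 11 were above 0 (median 0.01), with Ltbp4, which anchors latent TGF-beta to the matrix, at 1926 and 2086 CPM in sham and 1446 and 1606 CPM after irradiation, and Thbs1 as given above. Of 12 tested regulators of Wnt and BMP 6 were above 0 (median 0.08), with Fstl1 at 1161 and 1155, and 914 and 1105 CPM, and Sfrp2 at 92.5 and 138, and 184 and 196 CPM. Growth factors and receptors had a median of 0.06 over 19 genes, with Igfbp7 at 3423 and 3761, and 3792 and 3781 CPM, and Igfbp4 at 1751 and 1567, and 1474 and 1451 CPM. Complement genes, which fibroblasts express strongly, had a median of 0.10 over 11 genes, with Serping1 at 1786 and 1847, and 2102 and 1801 CPM. Of 19 tested chemokines and cytokines 15 were above 0 (median 0.25), with Cxcl1 at 1158 and 1227, and 975 and 1436 CPM, and Ccl2 at 133 and 617, and 581 and 771 CPM. Of 10 tested genes of STING and DNA sensing none was called (median 0.18), with Nfkb1 at 216 and 216, and 149 and 183 CPM. The NF-kB targets had a median of 0.04 for irradiation and -0.44 for genotype, where 16 of 18 lay below 0, and the immediate early genes, which tissue digestion can raise, had medians of -0.12 and -0.31 over 29 genes. Fos was at 4948 and 5132, 4029 and 6029, and 3582 and 4077 CPM.

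In the metabolic lists, too, no gene was called for irradiation. Medians for irradiation were 0.02 over 19 genes of glycolysis and hypoxia, 0.06 over 38 of oxidative phosphorylation, -0.11 over 21 of lipid and retinoid handling and 0.00 over 24 of metallothioneins, iron and oxidative stress. Those for 18 senescence and secretory genes and 9 tested cell cycle genes were 0.04 and 0.09. Gapdh was at 507 and 602 CPM in sham and 688 and 582 CPM after irradiation, Apoe at 5280 and 3400, and 4146 and 3921 CPM, and Fth1, the heavy chain of ferritin, at 4190 and 5253, and 4316 and 4887 CPM.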

How the data were processed

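CD45+ cells from 6 mouse heart libraries were profiled with a droplet 3' single-cell kit, per the labels' protocols. The authors deposited unnormalized UMI counts in sparse matrices of genes by barcodes, per the file headers, with 4556 to 9319 barcodes per library. Cell Ranger 5.0.0, Seurat 3 and build mm10 are named in the submitters' processing notes, which do not say what each was used for. Gene positions were taken for 32158 of 32285 listed genes from the GRCm38 annotation.

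The members and the gene lists were chosen with earlier results of these data known. Members were found by the UMI rule given in the text, and their counts were summed per library. The sums were tested with edgeR 4.0.16 in R 4.3.3 (quasi-likelihood test over all 6 libraries, filterByExpr, TMM, Benjamini-Hochberg adjustment, threshold 0.05), and every adjusted p is from that test unless another tool is named. The 8245 tested genes leave out the 16 genes of the rule, and genes that passed the filter on low counts are not all members of a list. Fibroblasts were compared with the endothelial class (1551 cells) and the macrophage class (12880 cells) by a class-by-group term with library as a block. Shares and thinning were computed in Python 3.11.15, and doublets were scored and cells clustered with scanpy 1.11.5. The code was tested on simulated data. Named genes were those called with at least 20 CPM (12 in each direction at most), the 2 most abundant members of each list, the genes of the rule and the 10 genes most like Dcn; others were named for the capped counts or after their values were seen. Alternatives were RLE size factors, DESeq2 1.42.0, no filter, the replicate number as a block, a mitochondrial limit of 5%, scored doublets removed, at least 20 matrix UMIs, members with no Ptprc and few C1q UMIs, and each library left out. Capped counts, and both irradiated groups averaged against sham, were chosen after seeing the data. Libraries with the same number deviated together only weakly (correlations of 0.0653 to 0.111), so the numbers were not taken to pair them. Intervals cover counting error only. Some genes are not reported here.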

Additional observations from a re-analysis of the deposited data

Results flagged for a closer look

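For 32 results the effect of irradiation or of genotype differed between fibroblasts and another cell class of the same libraries, by the test of the difference itself in edgeR. Each value is the log2 effect in fibroblasts minus that in the other class, and no explanation was tested. Sizes depended on the processing. Over 10 alternatives Spp1 ran from 2.53 to 12.4, Fndc1 from 3.97 to 8.55 and Inhba from 3.97 to 7.98, while Gas6 ran from 1.34 to 1.82. The number of such calls also moved, as given in the next section.

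Against endothelial cells, the radiation effect was higher in fibroblasts for the activin subunit gene Inhba (4.41), Fndc1 (4.82), Tgfbi (2.77), Thbs1 (2.03), Cebpb (1.38), Apoe (1.36) and Fth1 (0.869). It was lower for Gdf15 (-3.47), Nnmt (-3.4), Phlda3 (-1.95), Vwa1 (-1.73), Bax (-1.38), Phlda1 (-1.32), Tuba1a (-1.19) and Sparc (-0.902). The genotype effect was higher in fibroblasts for Gdf15 (2.84) and Mgp (2.1).

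Against macrophages, the radiation effect was higher in fibroblasts for Spp1 (6.56), Ctla2a (5.46), Dlc1 (2.42), Sgce (2.13), Adamts1 (1.82), the BMP receptor gene Bmpr1a (1.81), Ccn1 (1.72), Colec12 (1.63), Gas6 (1.58), Mfge8 (1.3) and Rhoj (1.21). It was lower for Ly6a (-1.81), the nuclear receptor gene Nr4a3 (-1.61) and Pcolce (-1.24). The genotype effect was higher in fibroblasts for Gdf15 (3.43).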

How the results depend on the processing

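Counts of called genes moved most. With no filter on low counts, 136 genes were called for radiation, 162 for genotype, 166 between irradiated knockout-labelled and sham, 190 for radiation against endothelial cells and 101 against macrophages. DESeq2 called 21 for genotype and 25 between knockout-labelled and sham. With the replicate number as a block these were 22 and 17, and radiation had 8. Members without Ptprc and with few C1q UMIs gave 1, 10 and 12 for the 3 fibroblast comparisons. The 1 for radiation was H2-Q7 (log2 fold change 4.28). Those for genotype included H2-D1 (-1.06), H2-K1 (-0.998) and Iigp1 (-3.17), which were lower, and Mmp3 (1.39), which was higher. Capped counts gave 5, 20 and 24, and at least 20 matrix UMIs 10 between knockout-labelled and sham. With the mitochondrial limit at 5% the radiation effect differed in 6 genes against endothelial cells and 65 against macrophages, and with scored doublets removed in 1 and 39. Leaving out 1 library gave 0 to 27 for radiation, 2 to 25 for genotype, 4 to 17 between knockout-labelled and sham, 6 to 100 against endothelial cells and 11 to 95 against macrophages. The genotype difference in share ran from -0.637 to 0.0792 percentage points. Reversed values were those of Mgp against endothelial cells for genotype (-0.81) and Adamts1 against macrophages for radiation (-0.27), both with the mitochondrial limit at 5%. Over the genes followed, 623 values kept their direction and side of the threshold, 110 lost a call and 38 gained one. The 623 include genes uncalled both times, and a few counts of genotype calls against other classes that changed little. The causes were not tested. Depth limits the smallest libraries, with 34 and 37 fibroblasts.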

Other observations

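Sex-linked genes showed that each library held cells of both kinds. Of the 471 fibroblasts, 204 held UMIs of Xist and of no Y-linked gene, 169 held Y-linked UMIs and no Xist, 14 held both and 84 neither, with both of the first 2 kinds in every library.

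The clock genes Nr1d2, Dbp, Tef and Npas2 were not in a list. Nr1d2 was at 29.4 and 21.6 CPM in sham, 70.9 and 71.5 CPM in irradiated wild type and 32.8 and 40.9 CPM in STING KO. Dbp was at 19.6 and 9.5, 70.9 and 31.3, and 24.3 and 44 CPM, and Npas2 at 40.6 and 36.5, 10.6 and 14.9, and 30 and 44 CPM. Tef was at 21.0 and 16.2, 24.8 and 32.7, and 50 and 59.7 CPM. None passed the edgeR test for radiation, and they were named after their values were seen.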
